A study of Mus musculus with 6 samples.

Results

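The vascular endothelial growth factor (VEGF) and angiopoietin genes were taken from the deposited expression table by symbol. They are the 5 VEGF ligands Vegfa, Vegfb, Vegfc, Figf (VEGF-D) and Pgf (placental growth factor), the 3 VEGF receptors Flt1, Kdr and Flt4, and the angiopoietins Angpt1 and Angpt2. All 10 symbols were found among the 29955 genes of the table, and all 10 had enough reads to be tested, as did 16378 genes in all. The samples were mouse embryonic fibroblasts (MEFs) at passage 3, with 3 Rnf40+/+ and 3 Rnf40-/- libraries. Rnf40 encodes an E3 ubiquitin ligase that places monoubiquitin on histone H2B, and the study asked how its loss alters gene expression. The Rnf40-/- cells carried a floxed Rnf40 gene (loxP sites around exons 3 and 4) and a tamoxifen-inducible CreERT2 at the broadly active Rosa26 locus. They were given 250 nM 4-hydroxytamoxifen (4-OHT) for 5 days and were then grown for 3 days without it. The study describes its MEFs as derived from embryos with this genotype. Whether the Rnf40+/+ cells sequenced here were such cells left undeleted, and whether they received 4-OHT, is not given in the sources used here. The deletion and the treatment thus cannot be told apart. How many embryos or separate cultures gave rise to the libraries is not given either, so p-values measure the spread between these libraries.

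VEGF ligands are secreted growth factors that fibroblasts, among other cells, make for neighbouring blood and lymphatic vessels, where the receptor tyrosine kinases Flt1, Kdr and Flt4 sit mainly on endothelial cells. VEGF-A acts through Kdr to drive endothelial division and sprouting, while Flt1 binds VEGF-A, VEGF-B and placental growth factor and can act as a trap. VEGF-C and VEGF-D signal through Flt4 to lymphatic endothelium, and the angiopoietins act on the receptor Tek, with Angpt1 as the agonist and Angpt2 as an antagonist in many settings.

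The deposited value of a gene is its read number divided by a size factor of its library and is called its normalized count. The libraries held 17053436 to 26344170 reads on genes, and 3 reads, the limit of detection used here, corresponded to a normalized count of 2.40 to 3.58. The lowest read number of any of the 10 genes was 18, for Kdr. Rnf40 itself kept 40.5% of its Rnf40+/+ level (log2 fold change -1.30, standard error 0.09, limma adjusted p = 4.25e-07). The counts cover the whole gene and not the deleted exons alone. Fibroblast markers such as Fn1 (a matrix glycoprotein) were high in every library, with a sum over the 13 markers of 696457 to 775499 in Rnf40+/+ and 408262 to 410774 in Rnf40-/- cells.

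Vegfa fell to 20.9% of its level in Rnf40-/- MEFs, Vegfb and Figf fell less, and Vegfc, Flt1, Kdr, Flt4 and Angpt1 rose. In limma on log2(normalized count + 1), with Benjamini-Hochberg adjustment over all genes tested, 8 of the 10 genes had an adjusted p under 0.05. Of these, 5 were higher, or 50% of the 10 genes, against 23.3% of all genes tested. The other 3 were lower, or 30%, against 24.1% of all genes. The values of the 3 Rnf40+/+ and the 3 Rnf40-/- libraries did not overlap for 5 genes that were higher and 3 that were lower, against 27.8% and 28.7% of all genes tested. Under the limits that the study set (mean above 15, unadjusted p under 0.05, log2 fold change beyond 1 in size), only Kdr was higher and only Vegfa lower among the 10 genes, against 4.25% and 5.70% of all genes tested in these directions. The median absolute log2 fold change was 0.64 over the 10 genes and 0.33 over all genes tested. Vegfa is also in the study's list of downregulated genes and Kdr in its list of upregulated genes. Both lists were chosen on the same libraries, so their directions are not independent evidence.

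**Figure D1:**
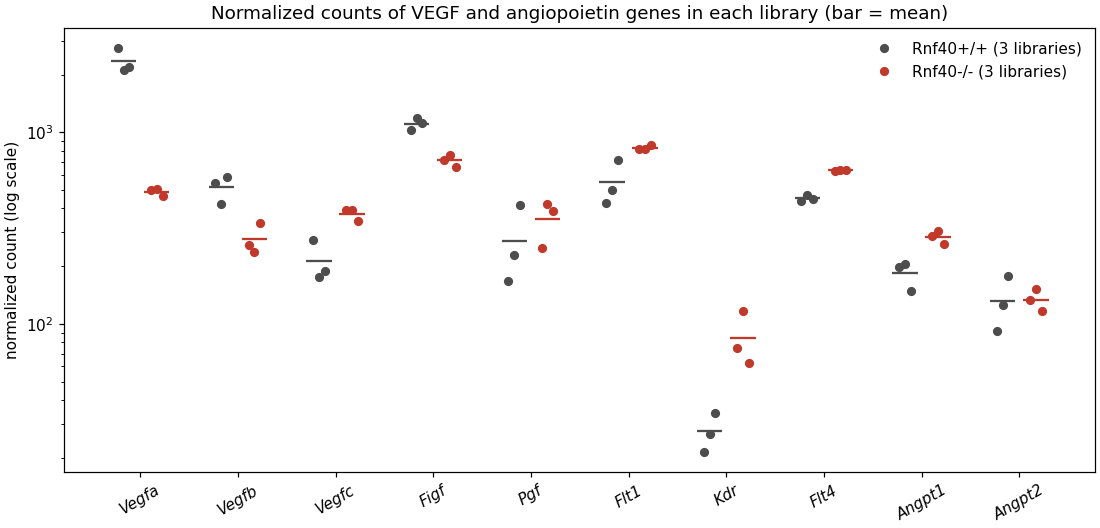
Normalized count (log axis) of the 10 VEGF and angiopoietin genes in each library. Each point is a library, grey for Rnf40+/+ and red for Rnf40-/-, and bars are means of 3. The Vegfa points lie at 2102 or more in Rnf40+/+ and at 505 or less in Rnf40-/- cells, the mean of Kdr is the lowest in both groups, and only for Pgf and Angpt2 do the points of the 2 groups overlap.

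Vegfa (ENSMUSG00000023951) spans positions 46153942 to 46169326 of chromosome 17 in mm9 (minus strand), and its longest annotated transcript has 8 exons and 3528 nucleotides. Its normalized counts were 2752, 2102 and 2186 in Rnf40+/+ and 502, 505 and 464 in Rnf40-/- libraries. The lowest Rnf40+/+ value was thus far above the highest Rnf40-/- value. The mean went from 2346 ± 353 (SD, n = 3) to 490.1 ± 23.0 (SD, n = 3), which left 20.9% of the Rnf40+/+ level. The log2 fold change was -2.25 (standard error 0.10, limma adjusted p = 1.66e-08), and 133 of the 16378 genes tested had a lower one. In bulk RNA, fewer cells that express a gene and less of its RNA per cell cannot be told apart. Fibroblast markers were also lower in 11 of 13 cases, against 24.1% of all genes tested, and their part in the fall of Vegfa was not tested.

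The promoters of the genes with the largest fall and the largest rise, Vegfa and Kdr, are shown with that of Figf, which differed from the others in base composition. These are the 250 bases before the annotated start of transcription, from RefSeq (GRCm38.p6), read 5′ to 3′ on the strand of the gene. Capitals mark the GC box GGGCGG on either strand, the core of the motif that factors of the Sp family bind.
Vegfa, chr17:46032378-46032627, minus strand: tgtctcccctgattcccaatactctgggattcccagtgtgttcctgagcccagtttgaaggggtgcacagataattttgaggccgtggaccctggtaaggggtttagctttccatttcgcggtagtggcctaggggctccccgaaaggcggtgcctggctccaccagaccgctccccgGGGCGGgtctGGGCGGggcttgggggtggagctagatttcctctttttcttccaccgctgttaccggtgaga
Kdr, chr5:75978456-75978705, minus strand: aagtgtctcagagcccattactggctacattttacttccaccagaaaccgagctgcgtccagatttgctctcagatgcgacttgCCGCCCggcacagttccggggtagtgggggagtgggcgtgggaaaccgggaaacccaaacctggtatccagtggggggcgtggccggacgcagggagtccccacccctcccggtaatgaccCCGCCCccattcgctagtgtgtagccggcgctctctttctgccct
Figf, chrX:164373272-164373521, plus strand: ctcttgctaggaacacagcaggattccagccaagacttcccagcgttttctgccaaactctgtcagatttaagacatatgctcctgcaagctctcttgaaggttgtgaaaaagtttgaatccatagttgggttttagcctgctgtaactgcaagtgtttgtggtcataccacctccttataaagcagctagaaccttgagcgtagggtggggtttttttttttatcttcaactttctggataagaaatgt

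Promoter windows from 250 bases before to 50 after the start were found for 8 of the 10 genes, 10 windows in all. Angpt1 and Angpt2 had none. The Vegfa window had 2 GC boxes, at 72 and 62 bases before the start, and a GC content of 62.0%, against a median of 52.7% over all windows. The Kdr window also had 2 GC boxes, with a GC content of 60.7%. Figf had none, and its GC content was 42.0%. A GC box was also found for Vegfb (4), Vegfc (2), Pgf (2), Flt1 (3) and Flt4 (3), and 35.7% of all 32851 mouse windows held at least 1. The core of the hypoxia response element, ACGTG on either strand, was found in 19.6% of all windows. Among the windows of these genes, only a downstream window of Vegfa held it. Sites more than 250 bases before a start were not searched, so a gene without it here can have it farther away. The AP-1 site TGANTCA, which is the same motif on both strands, was found in 7.8% of all windows and in none of the 10. None of the motifs overlapped in the 3 sequences printed. Whether any of these motifs bears on the changes of the genes was not tested.

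Vegfb (chromosome 19, 7056963 to 7062141, minus strand of mm9), a ligand of Flt1, had normalized counts of 545, 420.1 and 586 in Rnf40+/+ and 258, 238 and 337 in Rnf40-/- libraries. The groups did not overlap, although the third library was the highest in both. The mean fell from 517 ± 86.4 to 278 ± 52.4 (SD, n = 3 each), with a log2 fold change of -0.90 (standard error 0.15, limma adjusted p = 0.000429).

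Figf (chromosome X, 160811310 to 160840582, plus strand) had normalized counts of 1028, 1181 and 1118 in Rnf40+/+ and 716, 764 and 659 in Rnf40-/- libraries. All 3 Rnf40-/- values were below all Rnf40+/+ values. The mean fell from 1109 ± 76.7 to 713 ± 52.5 (SD, n = 3 each), with a log2 fold change of -0.64 (standard error 0.08, limma adjusted p = 6.96e-05).

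Vegfc (chromosome 8, 55162886 to 55271808, plus strand), the other ligand of Flt4, went the opposite way. Its normalized counts were 273, 176 and 188 in Rnf40+/+ and 391, 392.4 and 346 in Rnf40-/- libraries, with no overlap. The mean rose from 213 ± 52.9 to 376 ± 26.5 (SD, n = 3 each), with a log2 fold change of 0.84 (standard error 0.15, limma adjusted p = 0.000786). The lymphatic ligands Vegfc and Figf thus changed in opposite directions.

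Pgf (chromosome 12, 86507589 to 86518246, minus strand) encodes a ligand that binds Flt1 but not Kdr. Its normalized counts were 167, 229 and 417 in Rnf40+/+ and 248.8, 421 and 388 in Rnf40-/- libraries. The groups overlapped, since the third Rnf40+/+ library was as high as the higher Rnf40-/- libraries. The log2 fold change of 0.45 (95% interval -0.16 to 1.05) had a limma adjusted p of 0.211, so a difference of Pgf was not resolved. Without the third Rnf40+/+ library it was 0.81 (limma adjusted p = 0.0039). This library also had the highest sum over the 11 macrophage markers, 9948 against 5866 and 6224 in the other Rnf40+/+ libraries and 3716 to 4113 in Rnf40-/- libraries. Most of this sum is Lyz2, with a mean of 5314 of a mean sum of 7346 in Rnf40+/+ libraries. The third Rnf40+/+ library, which held the most reads, also stood apart over genes in general. Its chi-square per gene was 28.8 and 25.9 against the first and second, which differed from each other by 8.35. The part of these differences in the value of Pgf was not tested.

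To compare levels between the ligands, normalized counts were divided by the length of the longest annotated transcript in kb. In Rnf40+/+ MEFs the level per kb was highest for Vegfa at 665 ± 100.2 (SD, n = 3), followed by Figf at 541 ± 37.4 and Vegfb at 404 ± 67.4, without overlap between these neighbours. Pgf at 171 ± 82.1 and Vegfc at 113 ± 28.1 came next and overlapped. In Rnf40-/- MEFs Figf was highest at 348 ± 25.6, and Vegfa was lowest of the 5 at 139 ± 6.53, below every value of the others. Pgf (223 ± 57.7), Vegfb (217 ± 40.9) and Vegfc (range 184 to 209) lay between them, and each overlapped its neighbour.

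The level per kb summed over the 5 ligands was 1894 ± 136 in Rnf40+/+ and 1126 ± 61.4 in Rnf40-/- MEFs (SD, n = 3 each). Vegfa made up 39.8%, 34.3% and 31.2% of this sum in the Rnf40+/+ and 13.4%, 12.2% and 11.5% in the Rnf40-/- libraries. The share was lower in 3 of 3 Rnf40-/- libraries, by 22.7 percentage points (exact permutation test, two-sided p = 0.1, the smallest that 3 against 3 libraries can give, and 0.15 after Benjamini-Hochberg adjustment over the 3 ratios and shares tested). The mean share of Vegfc went from 5.95% to 17.8% and that of Pgf from 9.0% to 19.6%. The shares of Figf (28.8% and 30.9%) and Vegfb (21.2% and 19.3%) moved by less than their spread between libraries.

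**Figure D2:**
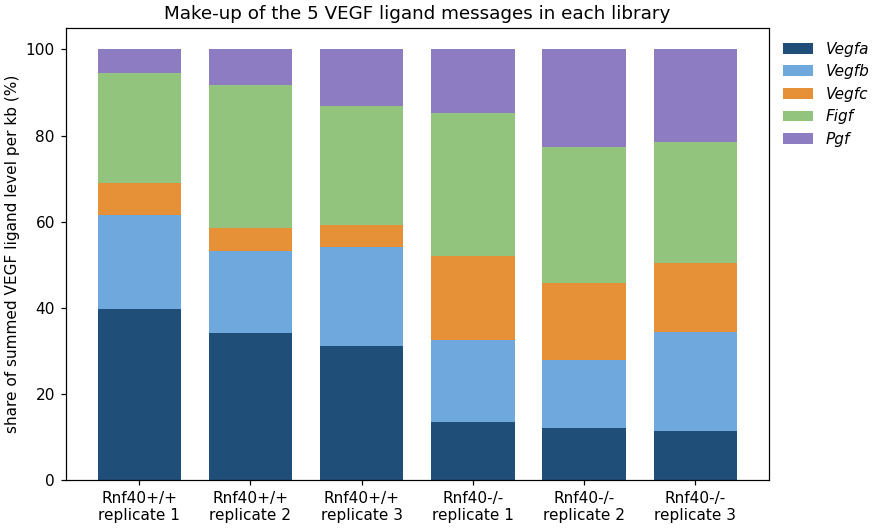
Share of each of the 5 VEGF ligands (%) in their summed level per kb, with 1 stacked bar for each library. The Vegfa share (dark blue, at the bottom) is 31.2% to 39.8% in the Rnf40+/+ bars and 11.5% to 13.4% in the Rnf40-/- bars, while the shares of Vegfc (orange) and Pgf (purple) are wider in the Rnf40-/- bars.

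All 3 VEGF receptor genes were higher in Rnf40-/- MEFs. Kdr (ENSMUSG00000062960, chromosome 5, 76328852 to 76374483, minus strand of mm9), the main signalling receptor of VEGF-A, had normalized counts of 21.5, 26.5 and 34.3 in Rnf40+/+ and 74.4, 117 and 62.3 in Rnf40-/- libraries. These rest on 18, 26 and 43 reads and on 73, 112 and 66 reads, and the groups did not overlap. The mean rose from 27.4 ± 6.47 to 84.5 ± 28.7 (SD, n = 3 each), with a log2 fold change of 1.56 (standard error 0.28, limma adjusted p = 0.000705).

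Flt1 (chromosome 5, 148373180 to 148537587, minus strand) had normalized counts of 428, 499.7 and 712 in Rnf40+/+ and 817, 821 and 855 in Rnf40-/- libraries. The Rnf40-/- values lay close together above the wider range of the Rnf40+/+ values. The mean rose from 547 ± 148 to 831 ± 21.1 (SD, n = 3 each), with a log2 fold change of 0.64 (standard error 0.15, limma adjusted p = 0.00356). Without the third Rnf40+/+ library, in which both Flt1 and the summed macrophage markers were highest for that genotype, it was 0.84.

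Flt4 (chromosome 11, 49422765 to 49466241, plus strand), the receptor of VEGF-C and VEGF-D, had normalized counts of 437, 472 and 446 in Rnf40+/+ and 630.1, 636 and 638 in Rnf40-/- libraries. The spread was small in both groups, which did not overlap. The mean rose from 452 ± 18.3 to 635 ± 4.14 (SD, n = 3 each), with a log2 fold change of 0.49 (standard error 0.08, limma adjusted p = 0.000363).

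Per kb of transcript, Flt1 (79.3 ± 21.5) and Flt4 (72.2 ± 2.92) overlapped in Rnf40+/+ MEFs, while Kdr was far lower at 4.63 ± 1.09 (SD, n = 3). In Rnf40-/- MEFs the levels per kb were 121 ± 3.06 for Flt1, 101.5 ± 0.661 for Flt4 and 14.3 ± 4.84 for Kdr, without overlap. The log2 ratio of Kdr to Flt1, from normalized counts, was -4.25, -4.19 and -4.34 in Rnf40+/+ and -3.44, -2.80 and -3.76 in Rnf40-/- libraries. It was higher in 3 of 3 Rnf40-/- libraries, by 0.92 (exact permutation test, two-sided p = 0.1, the smallest possible, adjusted p = 0.15).

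Markers of endothelial cells, in which Kdr is best known, moved unevenly. Pecam1, an adhesion molecule of endothelium and some blood cells, had normalized counts of 4.78, 4.08 and 2.40 in Rnf40+/+ and 28.6, 35.5 and 18.9 in Rnf40-/- libraries (limma adjusted p = 0.000484). Cdh5, the cadherin of endothelial junctions, had 2, 5 and 1 reads in Rnf40+/+ and 31, 38 and 25 reads in Rnf40-/- libraries (limma adjusted p = 0.000295). The second Rnf40-/- library was the highest of its group for Kdr, Pecam1 and Cdh5, and the third was the lowest for all 3 genes. Emcn, an endothelial sialomucin, fell by 1.15 on the log2 scale (limma adjusted p = 0.0023). The endothelial transcription factors Sox17 and Sox18 had no read in any Rnf40+/+ library and the tight junction gene Cldn5 had none in any Rnf40-/- library. Of 18 endothelial markers 10 were tested, of which 2 were called higher and 1 lower, no more than the shares among all genes. Their median log2 fold change was 0.95, against -0.0035 over all genes tested. However, Pecam1, Cdh5, Esam and Mmrn2 reached 10 reads in every Rnf40-/- library but not in every Rnf40+/+ library. Such genes pass the read filter through the Rnf40-/- group, which favours a positive median. The median is therefore no measure of a rise of the endothelial markers. Of the 7 not called, Egfl7 (-0.48) and Ecscr (-0.39) had a negative log2 fold change. The others had a positive one, from 0.05 for Eltd1 to 1.10 for Mmrn2 and 1.41 for Esam. The mean of Eltd1 was nevertheless lower in Rnf40-/- cells (28.4 and 13.8), with 63, 6 and 5 reads in the Rnf40+/+ libraries. The number called higher was 4 without the second Rnf40+/+ library, and the number called lower was 2 without the first. With at least 10 reads required in every library Pecam1 and Cdh5 were no longer tested. The summed normalized count of all 18 was 425 to 555 in Rnf40+/+ and 424 to 454 in Rnf40-/- libraries. Ecscr (means 183 in Rnf40+/+ and 135 in Rnf40-/-) and Emcn (126 and 55.3) were the highest markers in Rnf40+/+ cells. Pecam1 (3.75 and 27.6) and Cdh5 (2.76 and 31.6) added little to the sum, which thus mainly follows a few markers. The part of endothelial cells in the rise of Kdr was not tested.

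**Figure D3:**
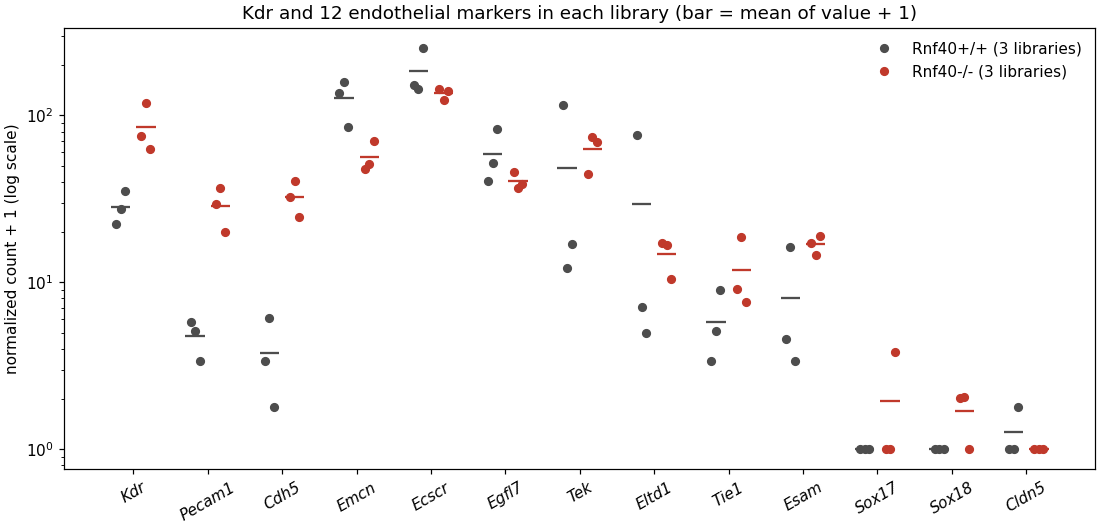
Normalized count + 1 (log axis) of Kdr and 12 endothelial markers in each library, with grey points for Rnf40+/+, red points for Rnf40-/- and bars for the means. Kdr, Pecam1 and Cdh5 are higher in all Rnf40-/- libraries, Emcn and Ecscr are lower, and Sox17, Sox18 and Cldn5 lie at or near 0 reads. Not drawn are Mmrn2 and Erg, which were also higher in all Rnf40-/- libraries (Erg with few reads), and Robo4, Plvap, Vwf and Icam2, whose groups overlapped.

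Angpt1 (ENSMUSG00000022309, chromosome 15, 42256273 to 42508523, minus strand of mm9) had normalized counts of 197, 205 and 148 in Rnf40+/+ and 288, 306 and 262 in Rnf40-/- libraries. The groups did not overlap. The mean rose from 183 ± 31.0 to 285 ± 21.7 (SD, n = 3 each), with a log2 fold change of 0.65 (standard error 0.14, limma adjusted p = 0.00262). An annotated gene on the other strand, Gm17473, covers 6.65% of the exon bases of Angpt1, and whether strand was used in counting is not given in the sources used here, so part of its value is uncertain.

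Angpt2 (chromosome 8, 18690263 to 18741562, minus strand) had normalized counts of 92.0, 125 and 177 in Rnf40+/+ and 134, 151 and 116 in Rnf40-/- libraries. The Rnf40-/- values lay within the range of the Rnf40+/+ values. The log2 fold change of 0.07 (95% interval -0.41 to 0.54) had a limma adjusted p of 0.826, and its sign turned when single libraries were left out, for example to -0.16 without the first Rnf40+/+ library. The log2 ratio of Angpt1 to Angpt2 was 1.09, 0.70 and -0.26 in Rnf40+/+ and 1.10, 1.01 and 1.17 in Rnf40-/- libraries. The difference of 0.58 did not exceed the spread (exact permutation test, two-sided p = 0.2, adjusted p = 0.2, where the smallest possible p is 0.1), and it was 0.20 without the third Rnf40+/+ library. Per kb, Angpt1 and Angpt2 overlapped in Rnf40+/+ MEFs (43.1 ± 7.29 and 37.0 ± 12.1) but not in Rnf40-/- MEFs (67.0 ± 5.11 and 37.6 ± 4.94, SD, n = 3).

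**Figure D4:**
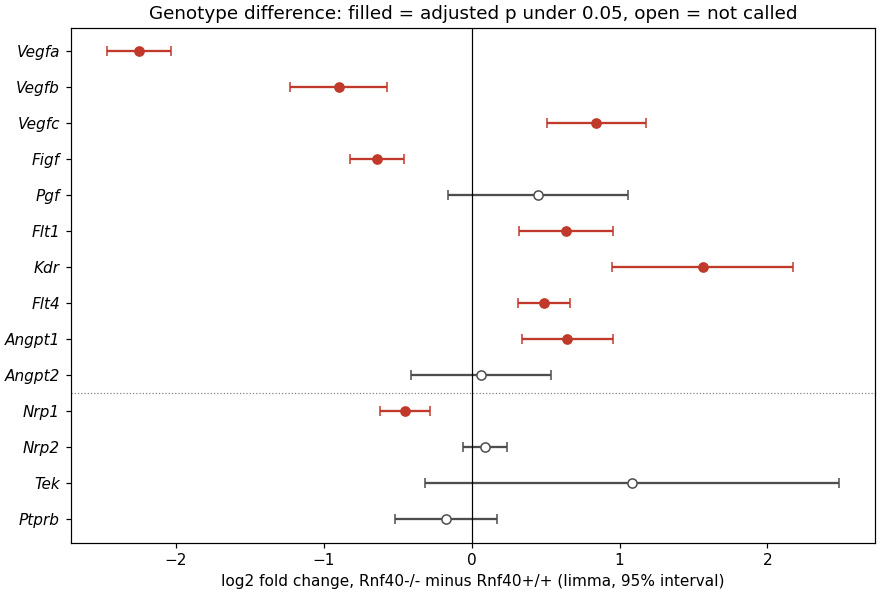
Log2 fold change (Rnf40-/- minus Rnf40+/+) with 95% interval from limma for the 10 genes and, below the dotted line, 4 co-receptors and angiopoietin receptors. Filled red points have an adjusted p under 0.05. Vegfa at -2.25 and Kdr at 1.56 are the largest, and the intervals of Pgf, Angpt2, Nrp2, Tek and Ptprb include 0.

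Among the partners of these receptors, the co-receptor Nrp1, which presents VEGF-A to Kdr, fell from 7427 ± 774 to 5414 ± 123 (SD, n = 3 each, log2 fold change -0.45, limma adjusted p = 0.00053). Nrp2, the co-receptor for VEGF-C, had means of 1618 and 1721 and a limma adjusted p of 0.295. The angiopoietin receptor Tek had normalized counts of 115, 11.2 and 16.0 in Rnf40+/+ and 43.8, 73.1 and 68.0 in Rnf40-/- libraries. The first Rnf40+/+ library stood above all others for Tek, and the limma adjusted p was 0.186 with it and 0.000168 without it (log2 fold change 2.09). Ptprb, the phosphatase that acts on Tek, was not called (limma adjusted p = 0.398), and the related receptor Tie1 had too few reads to be tested.

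Class 3 semaphorins are secreted guidance factors, several of which bind the neuropilins, and 4 of the 6 that were tested rose while 1 fell, against 23.3% higher and 24.1% lower among all genes tested. Sema3c rose from 2163 ± 336 to 8743 ± 106 (SD, n = 3 each, log2 fold change 2.03), Sema3e from 446 ± 38.0 to 1784 ± 20.9 and Sema3d from 165 ± 29.6 to 457 ± 34.8 (1.48). Sema3b also rose, with a log2 fold change of 0.49. Of 5 angiopoietin-like genes tested, 2 were lower and 1 higher. Angptl6 (-1.72) and Angptl2 (-1.06) fell and Angptl7 rose (1.33), the last with a limma adjusted p of 0.0561 without the third Rnf40-/- library.

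Vegfa is a target of the hypoxia-inducible factors (HIFs), which oxygen-dependent prolyl hydroxylases mark for degradation. Of 34 hypoxia-induced HIF targets tested besides Vegfa, 17 were lower and 4 higher in Rnf40-/- MEFs, where 24.1% of all genes tested were lower and 23.3% higher, with a median log2 fold change of -0.33 against -0.0035 over all genes tested. The lactate exporter Slc16a3 fell by 2.08, the glycolytic enzymes Tpi1 and Gapdh by 1.45 and 0.79 on the log2 scale, while Ndrg1 rose by 0.93. Of the HIF genes and their regulators, 6 of 9 tested were higher and 2 lower, against 23.3% and 24.1% of all genes tested. Epas1, which encodes HIF-2α, rose by 0.89, the prolyl hydroxylase gene Egln1 by 0.87 and the HIF partner Arnt2 by 0.79 on the log2 scale. Hif1a had means of 3624 and 3948 (limma adjusted p = 0.187). Egln3, which is both a target and a regulator, fell by 0.60 (limma adjusted p = 0.0196, and up to 0.0751 with single libraries left out). The part of the HIFs in the fall of Vegfa was not tested.

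Genes that act downstream of the VEGF receptors went both ways, with 15 of 36 tested higher and 9 lower, against 23.3% and 24.1% of all genes tested, and a median log2 fold change of 0.13. The catalytic subunit Pik3cb rose by 0.96, while the GTPase Nras fell by 1.09, the actin-regulating chaperone Hspb1 by 0.84 and the adaptor Shc1 by 0.77 on the log2 scale. Of 13 other angiogenic factors, 3 were higher and 4 lower, close to the shares among all genes. The chemokine Cxcl12 fell from 16489 ± 406 to 5066 ± 311 (SD, n = 3 each), the peptide ligand Apln rose from 87.3 ± 16.7 to 229 ± 20.1, and Fgf2 fell from 38.5 ± 4.27 to 17.4 ± 8.27. Fgf2 lost the call without the second Rnf40-/- library (log2 fold change -0.78 in place of -1.21, limma adjusted p = 0.0628). Fgf1 was called higher (limma adjusted p = 0.0441) but lost the call when any library was left out. Of 12 angiogenesis inhibitors, 5 were higher and 5 lower, against 23.3% and 24.1% of all genes tested. Serpinf1 (pigment epithelium-derived factor) fell by 1.53 and the protease Adamts1 rose by 0.90 on the log2 scale. The related protease Adamts8, also called higher, had 5, 7 and 1 reads in Rnf40+/+ and 40, 20 and 45 reads in Rnf40-/- libraries, so the size of its rise was not resolved.

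**Figure D5:**
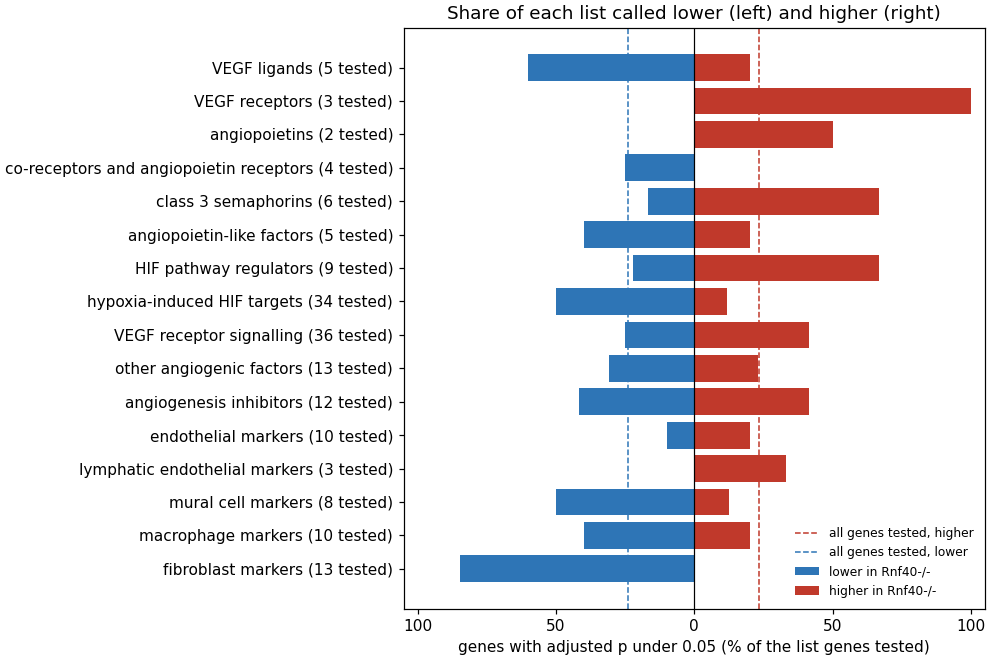
Share of the tested genes of each list with a limma adjusted p under 0.05 (% of genes), lower in Rnf40-/- to the left (blue) and higher to the right (red), with the shares of all genes tested as dashed lines. The number tested is given beside each list. VEGF receptors, class 3 semaphorins and HIF pathway regulators extend mainly to the right, and VEGF ligands, hypoxia-induced HIF targets and fibroblast markers mainly to the left.

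Markers of other cell types that MEF cultures can hold were counted in the same way, and are to be read against the 23.3% higher and 24.1% lower among all genes tested. Of 8 mural cell markers, 4 were lower and 1, Rgs5, was higher (limma adjusted p = 0.0428), a call that was lost without 4 of the 6 libraries in turn. The lower ones were Mcam (an adhesion molecule) at -2.26, Des (desmin) at -2.38 (-1.77 without the first Rnf40+/+ library), Cspg4 at -1.03 and Pdgfrb at -0.72 on the log2 scale. Of 10 macrophage markers tested, 4 were lower and 2 higher, with Cx3cr1 at -2.24, Tyrobp at -1.71, Lyz2 at -1.18 and Ptprc at 1.37. Of 3 lymphatic endothelial markers tested, Lyve1 was higher (limma adjusted p = 0.04), a call that was lost without 4 of the 6 libraries in turn, and the lymphatic transcription factor Prox1 was too low to be tested. Of 13 fibroblast markers, 11 were lower and none higher, with Postn at -2.50, Col1a2 at -2.26, Thy1 at -1.87 and Pdgfra at -1.09. The part of these markers in the values of the VEGF and angiopoietin genes was not tested.

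Among 11548 genes with a mean of at least 100, those whose log2 values followed Vegfa most closely over the 6 libraries were Fbn1 (Pearson r = 0.999), Top2a (0.999), AK138088 (0.999), Cep192 (0.999) and Asf1b (0.999). The libraries fall into the 2 genotypes, so these values describe mostly the shared fall in Rnf40-/- cells, which ranged from -0.52 for Fbn1 to -3.20 for Top2a on the log2 scale.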

How the data were processed

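The authors made strand-specific libraries from total RNA and describe the data as mRNA sequencing. They mapped the reads (Bowtie2 2.1.0 and mm9 per the labels' processing notes) and normalized them with DESeq 1.14.0. The counting tool is not given in the sources used here. The deposited signal values are counts divided by 1 size factor per library. Divided by the value of 1 read, 100% of the values above 0 came out whole (tolerance 0.01 reads), so the reads were recovered. Genes were filtered with filterByExpr of edgeR 4.0.16 and tested with limma 3.58.1 (trend, genotype only) on log2(value + 1), two-sided, with Benjamini-Hochberg adjustment, and the added 1 understates changes of low genes. Ratios and shares were tested with exact permutation tests (scipy 1.17.1). On simulated data with 200 of 16378 genes changed between the genotypes, limma recovered 200 with 9 false calls. The real libraries gave far more calls, 3809 higher and 3955 lower. Recovery under their spread and number of calls was not tested. Library pairs within a genotype differed by more than sampling noise (chi-square per gene 5.33 to 28.8).

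Named were the 10 genes, Rnf40, the co-receptors, up to 4 genes per list with the largest called change and a mean of at least 15, the highest marker, and the 5 genes most like Vegfa. Hif1a, Rgs5, Prox1, Sox17, Sox18, Cldn5 and the markers drawn in the endothelial plot were chosen after their values were seen. The members and lists were chosen with earlier results of these data known. Positions and lengths are from GENCODE vM1 (mm9), promoters from RefSeq. A comparison of the proteins was not made. Alternatives were edgeR, DESeq2 1.42.0, other normalizations, filters and pseudocounts, a replicate block and each library left out. R 4.3.3 and Python 3.11.15 were used.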

Additional observations from a re-analysis of the deposited data

How the results depend on the processing

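The 8 called genes of the VEGF and angiopoietin group kept their direction and an adjusted p under 0.05 in each of 15 alternatives with limma, edgeR or DESeq2 (other than the limits of the study). Vegfa lay between -2.32 and -2.13 and Kdr between 1.31 and 1.75 on the log2 scale. The alternative with size factors computed anew by DESeq2 repeats the main fit, since the deposited values are already divided by such factors. It gave the same 3809 higher and 3955 lower genes and adds no evidence. The quasi-likelihood test of edgeR, the Wald test of DESeq2 and the changes of normalization, filter and pseudocount left 5 genes higher and 3 lower. The limits of the study, which include a minimum fold change, gave 1 higher and 1 lower. Angpt2 changed sign without the first Rnf40+/+ library (-0.16, the lowest) and without the second Rnf40-/- library (-0.03), and its log2 fold change ranged up to 0.30 with 1 library left out. Same-numbered libraries did not deviate together more than others (r from 0.0118 to 0.0212, against -0.0531 to 0.0371). With 3 libraries per genotype this does not exclude that the libraries were paired. With the replicate block, Pgf had a limma adjusted p of 0.0193 at a log2 fold change of 0.45, no called gene of the 10 was lost, and 4021 genes were higher and 4196 lower among all genes, against 3809 and 3955. Leaving out 1 library in turn moved the difference in the Vegfa share between -24.7 and -20.4 percentage points, the Kdr to Flt1 log2 ratio between 0.66 and 1.137 and the Angpt1 to Angpt2 log2 ratio between 0.20 and 0.87. Read numbers limit the precision for Pecam1, Cdh5, Adamts8 and Tie1.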
